A study of Mus musculus with 27 samples.

Results

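The genes described here are 10 soluble glutathione S-transferases measured in mouse esophagus, namely Gsta2, Gsta3 and Gsta4 of the alpha class, Gstm1, Gstm2, Gstm3, Gstm4, Gstm5 and Gstm6 of the mu class, and Gstp1 of the pi class. They were taken by symbol from the probes of the array and are 10 of 28168 named genes; 13 probes measured them. Expression was read on 27 Agilent arrays in 2 colours, with 3 arrays in each of 9 groups. By the labels every group was on a C57BL/6J background. Whole esophagus came from wild-type embryos (E11.5 and E15.5), newborns (P0) and pups (P7) and, at the last of these ages, from Nrf2-/-, Keap1-/- and Nrf2-/-Keap1-/- mice, while the epithelium of the esophagus came from wild-type and Nrf2-/- adults of 8 weeks. The deletions were present in every cell of the animal. By the study's account Keap1-/- mice die before adulthood, and the adults here were wild type and Nrf2-/-. Each sample carried Cy5 and was hybridised against 1 mouse reference RNA, made from 11 cell lines, that carried Cy3. The level of a gene is therefore given as a log2 ratio of sample to reference, and levels are compared between groups for the same gene, not between genes. By the study's methods each RNA came from a single esophagus, so p-values measure the spread between animals and the handling of their samples. In these bulk samples, fewer cells of a type cannot be told apart from less RNA per cell.

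Glutathione S-transferases join the tripeptide glutathione to electrophilic compounds, which makes them soluble and ready for export from the cell. The soluble enzymes work as dimers and are grouped into classes by sequence; the alpha class also reduces lipid peroxides, and the pi class binds signalling kinases as well as substrates. Many of their genes are targets of Nrf2 (gene Nfe2l2), a transcription factor that Keap1 holds in the cytoplasm and passes on for degradation. When Keap1 is lost or modified by an electrophile, Nrf2 enters the nucleus, pairs with a small Maf protein and binds antioxidant response elements. The comparisons ask how the transferases changed while the esophageal lining turned from a simple into a stratified and keratinized layer, and what losing Nrf2, Keap1 or both did to them.

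Sequences before the starts of these genes are shown because the members moved together when Keap1 was absent, and the letters of the element that Nrf2 binds can be looked for in them. RefSeq windows (GRCm38.p6) matched 9 of the 10 members, all but Gsta4, and each 250-base stretch before a start was searched on both strands for TGACNNNGC, the core of the antioxidant response element, and for TGANTCAGC, the letters of an NF-E2 or AP-1-like site; a site of the second kind with C in place of N also spells the first. Of 32851 such windows of all genes, 10.2% held TGACNNNGC and 1.02% held TGANTCAGC. Among the members, Gsta3 and Gstm5 held the first and Gstp1 the second. These windows are printed 5′ to 3′ with the match in capitals, together with the first of the windows of Gstm1, which held neither; a match is a run of letters and no evidence of binding, and its absence says nothing of sites farther away.
Gsta3 (chr1:21240335-21240584, plus strand): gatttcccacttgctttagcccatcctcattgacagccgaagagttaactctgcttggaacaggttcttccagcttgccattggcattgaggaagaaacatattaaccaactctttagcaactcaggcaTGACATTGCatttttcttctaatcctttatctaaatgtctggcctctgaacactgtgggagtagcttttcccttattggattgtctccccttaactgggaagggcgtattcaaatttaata
Gstm5 (chr3:107895604-107895853, plus strand): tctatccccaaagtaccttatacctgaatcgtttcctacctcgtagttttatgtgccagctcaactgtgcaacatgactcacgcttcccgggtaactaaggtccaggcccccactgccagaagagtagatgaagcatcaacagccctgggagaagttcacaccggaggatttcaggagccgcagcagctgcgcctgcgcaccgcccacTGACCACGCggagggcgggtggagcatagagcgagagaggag
Gstp1 (chr19:4037913-4038162, minus strand): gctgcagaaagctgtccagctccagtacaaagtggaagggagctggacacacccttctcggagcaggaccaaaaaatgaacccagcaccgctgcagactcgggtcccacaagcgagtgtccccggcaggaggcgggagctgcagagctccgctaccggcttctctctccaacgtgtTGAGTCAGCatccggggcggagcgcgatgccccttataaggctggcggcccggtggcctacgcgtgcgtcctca
Gstm1 (chr3:108017819-108018068, minus strand): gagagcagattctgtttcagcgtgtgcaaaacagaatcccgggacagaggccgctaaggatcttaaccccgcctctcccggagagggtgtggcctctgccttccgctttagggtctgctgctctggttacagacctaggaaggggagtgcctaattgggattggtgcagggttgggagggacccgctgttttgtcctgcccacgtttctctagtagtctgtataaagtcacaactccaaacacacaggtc
The first base of the match lay 121 bases before the start in Gsta3 (TGACATTGC), 42 before it in Gstm5 (TGACCACGC) and 74 before it in Gstp1 (TGAGTCAGC). All 6 mu genes lie in 1 stretch of chromosome 3, whereas Gsta2 lies on chromosome 9.

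Between 58.9% and 69.3% of Cy5 spots of an array were well above background, no member spot was saturated, and every member was well above background in Cy5 on all 27 arrays except Gsta2 (26) and Gstm6 (17). The Gsta2 probe also lists transcripts of Gsta1 and Gm10639, and 1 of the 2 Gstp1 probes lists Gstp2, so these values may include those genes. Spots marked as outliers by the reading software were kept. They made up 77.8% of values for Gstm5 and for the Gstp1 probe shared with Gstp2. The shares were 64.1% for Gsta4, 63.0% for 1 Gstm1 probe and 3.7% for Gstm6, the lowest. Over all spots they were 3.22% to 6.08% on the 7 arrays read with the newer software and 10.86% to 18.25% on the others. Nfe2l2, the deleted gene, fell from -0.55, -0.23 and 0.004 in wild-type esophagi at P7 to -3.92, -3.92 and -3.82 in Nrf2-/- and -4.14, -4.13 and -4.08 in Nrf2-/-Keap1-/- ones, and it had -3.64, -3.48 and -2.85 in Nrf2-/- against 0.81, 0.86 and 1.27 in wild-type adult epithelium. The Keap1 probe did not separate Keap1-/- (-0.27, 0.22 and 0.64) from wild type (0.42, 0.54 and 1.00), and whether it lies in the deleted part was not tested. In Nrf2-/-Keap1-/- esophagi the probe had -0.50, -0.32 and -0.19, below every wild-type and Nrf2-/- array of P7. Its difference from wild type there, -0.99, was not called (adjusted p = 0.0787). The 3 Keap1-/- arrays were alone on their slide and in their scan, so this genotype and its scan cannot be told apart. 2 embryonic arrays resembled the other age more than their own. Across 20729 genes, E11.5 replicate 3 had r = 0.981 and 0.976 against replicates 2 and 3 of E15.5 and 0.832 and 0.776 against its own group. For E15.5 replicate 1 the values were 0.957 and 0.927 against replicates 1 and 2 of E11.5 and 0.805 and 0.814 against its own group. Called members of the steps that use these groups are also given without both arrays, a choice made from these same data. Differences were tested with limma over all genes, and a gene is called when its Benjamini-Hochberg adjusted p is 0.05 or lower.

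**Figure D1:**
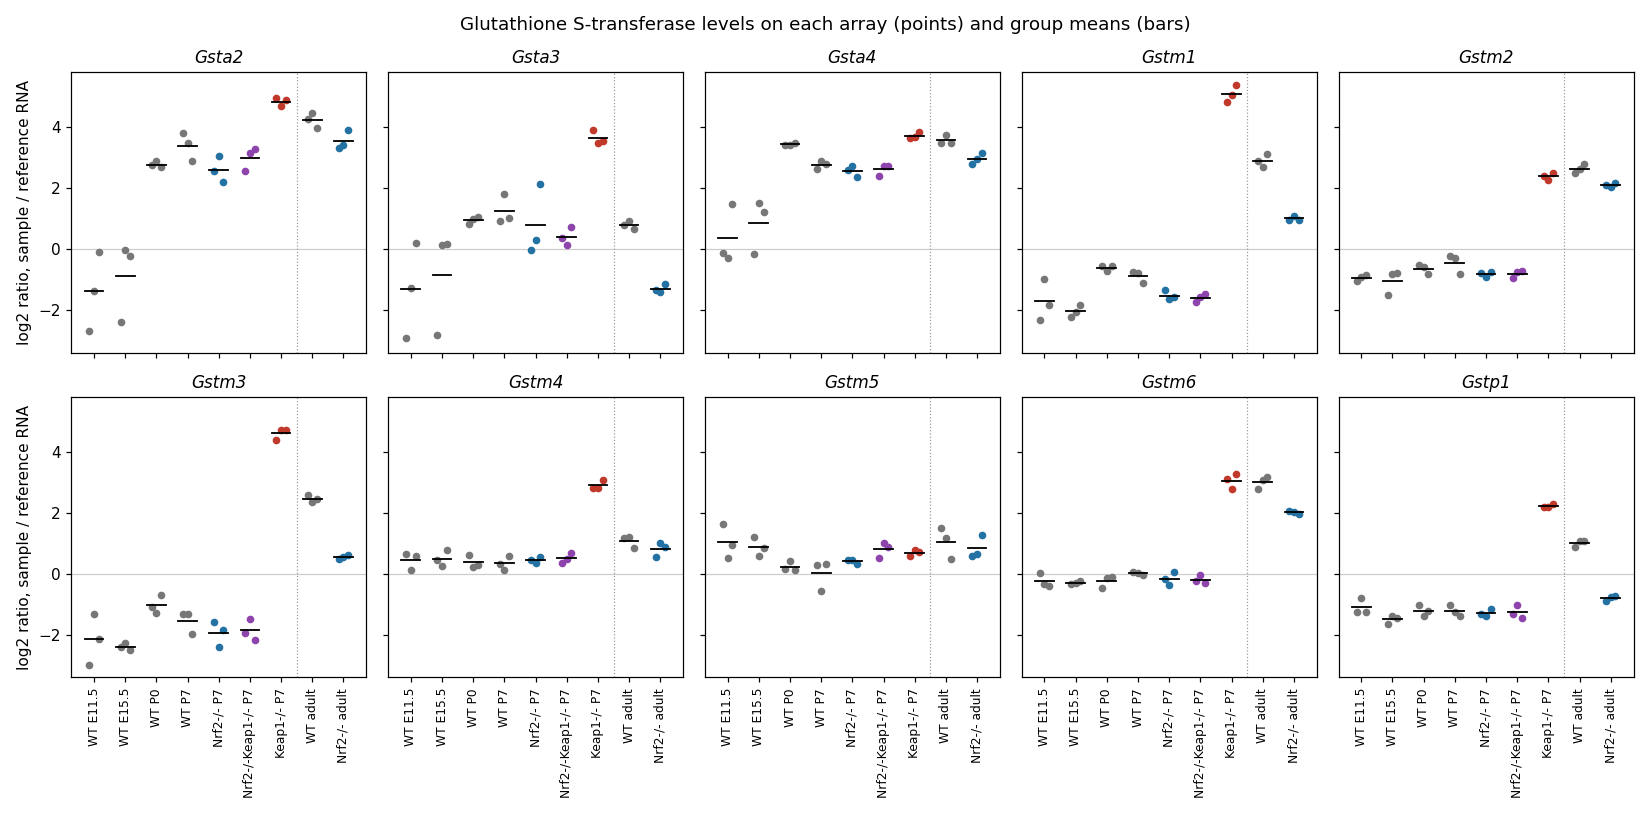
Log2 ratio of sample to reference RNA (vertical axis) of the 10 transferases on every array (points), by group (horizontal axis), with the group mean as a bar and a dotted line before the adult epithelium. Gstm1, Gstm3 and Gstp1 stood highest in Keap1-/- esophagi and next highest in wild-type adult epithelium, and Gstm5 varied least between groups, with means from 0.014 to 1.05.

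In wild-type development, all 3 alpha genes and Gstm1 rose over the span from E11.5 to P7, and Gstm5 fell. The call was lost in 11 of 19 alternatives for Gstm1, 10 of 19 for Gsta3 and 4 of 18 for Gstm5. From E15.5 to P0, 4 of the 10 members were called higher (Gsta2, Gsta4, Gstm1 and Gstm3), against 11.3% of 19707 genes tested, and none was called lower. Over the whole span from E11.5 to P7, 4 were called higher (Gsta2, Gsta3, Gsta4 and Gstm1; 16.8% of genes tested) and Gstm5 lower (13.5% of genes tested). No member was called from P0 to P7 (2.43% of genes tested; none of the members had an unadjusted p under 0.05), and none from E11.5 to E15.5, where 0% of genes tested were called and 1 member, Gstp1, had an unadjusted p under 0.05. The median difference of the members was 0.88 from E15.5 to P0 and 0.55 from E11.5 to P7, beside -0.0078 and -0.012 over all genes tested. Without E11.5 replicate 3 and E15.5 replicate 1, the same 4 members were called higher from E15.5 to P0, with Gsta2 at 2.89 (adjusted p = 0.000718), Gsta4 at 2.07 (1.81e-05), Gstm1 at 1.33 (0.0183) and Gstm3 at 1.37 (0.0495). From E11.5 to P7, Gsta2, Gsta3 and Gsta4 were called higher and Gstm5 lower (-1.06, adjusted p = 0.0333) without these arrays, while Gstm1 was no longer called and Gstm2 was (0.54, adjusted p = 0.0347). Epithelial markers had means of 0.483, 0.598 and 2.527 at E11.5 and 0.509, 2.58 and 2.618 at E15.5. At P0 they had 3.114 to 3.302, and at P7 2.952 to 3.47. Airway markers had -0.138, -0.074 and 2.349 at E11.5 and -0.142, 2.278 and 2.608 at E15.5. At P0 these had 2.286 to 3.325, and at P7 0.805 to 1.278. The part of tissue makeup in the developmental differences was not tested. No slide held arrays of both ages compared from E15.5 to P0, from P0 to P7 or from E11.5 to P7. Slide and age therefore cannot be told apart in these steps.

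Gsta2 had log2 ratios of -2.68, -1.38 and -0.11 at E11.5, -2.40, -0.22 and -0.035 at E15.5, 2.68, 2.74 and 2.87 at P0 and 2.89, 3.46 and 3.80 at P7. All 6 arrays of P0 and P7 were above all embryonic ones, and the increase from E11.5 to P7 was 4.77 (SE 0.68, adjusted p = 0.000743), a 27.3-fold rise. It was well above background on 2 of the 3 arrays of E11.5, all but replicate 1, and the increase was 4.13 without that array and 5.41 without E11.5 replicate 3 and E15.5 replicate 1. Gsta4, which acts on the hydroxyalkenals formed from oxidised lipids, had -0.28, -0.13 and 1.47 at E11.5, -0.17, 1.22 and 1.504 at E15.5, 3.40, 3.42 and 3.46 at P0 and 2.61, 2.78 and 2.87 at P7. It was highest at P0, and the P7 arrays were all below those of P0, with a difference of -0.67 that did not pass the test (adjusted p = 0.602). Gsta3, known for its activity toward the epoxide of aflatoxin, had -2.91, -1.26 and 0.19 at E11.5 and -2.82, 0.12 and 0.15 at E15.5, then 0.83, 0.98 and 1.05 at P0 and 0.93, 1.00 and 1.78 at P7. In both embryonic groups the arrays of all 3 alpha genes were spread widely, with E11.5 replicate 3 as the highest at its age and E15.5 replicate 1 as the lowest. Without these 2 arrays, Gsta2, Gsta3 and Gsta4 were called higher from E11.5 to E15.5, with differences of 1.90 (SE 0.39, adjusted p = 0.012), 2.22 (SE 0.45, adjusted p = 0.0122) and 1.57 (SE 0.14, adjusted p = 0.000125). In that fit 2657 of 19374 genes tested were called in either direction, against 0% with all arrays. The 2 arrays were picked from these same data for their likeness to the other age. Leaving them out thus favours a difference between these ages, and these calls only describe it. The call of Gsta3 from E11.5 to P7, 2.57 (SE 0.84, adjusted p = 0.0414) with all arrays, became 3.32 (SE 0.41, adjusted p = 0.000263) without these 2 arrays. It was lost in 10 of 19 alternatives. Among them were E11.5 replicate 1, E11.5 replicate 2 or any of P7 replicates 1 to 3 left out alone (adjusted p from 0.0756 to 0.152). The others were Feature Extraction's processed signals, median centring, outlier-marked spots left out, no filter on dim probes and the authors' series table of log ratios.

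Among the mu genes, Gstm1 and Gstm3 rose together between E15.5 and P0. Gstm1 had -2.33, -1.82 and -0.99 at E11.5, -2.22, -2.07 and -1.82 at E15.5, -0.72, -0.56 and -0.56 at P0 and -1.13, -0.79 and -0.75 at P7, and its increase from E15.5 to P0 was 1.42 (SE 0.28, adjusted p = 0.00583). Gstm3 had -2.97, -2.12 and -1.32 at E11.5, -2.49, -2.40 and -2.28 at E15.5, -1.27, -1.10 and -0.69 at P0 and -1.97, -1.32 and -1.31 at P7, with an increase from E15.5 to P0 of 1.37 (SE 0.35, adjusted p = 0.0212), which lost its call without E15.5 replicate 1, E15.5 replicate 3, P0 replicate 1 or P0 replicate 3 (adjusted p from 0.0525 to 0.0816). For both genes the E11.5 arrays overlapped those of E15.5, and Gstm1 was called from E11.5 to P7 (0.82, SE 0.28, adjusted p = 0.0449) with all arrays but not without E11.5 replicate 3 and E15.5 replicate 1 (0.77, SE 0.32, adjusted p = 0.084). Its call was also lost without E11.5 replicate 1 alone, E11.5 replicate 3 alone or any P7 array alone (adjusted p from 0.0575 to 0.153). With the replicate number as a block its adjusted p was 0.0516, without the filter on dim probes 0.0563, with the brightest probe of each gene 0.0525, with median centring 0.219 (difference 0.48) and without outlier-marked spots 0.139 (0.60).

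Of the other mu genes and Gstp1, only Gstm5 was called at any step up to P7. It had 0.53, 0.94 and 1.63 at E11.5 and 0.57, 0.83 and 1.19 at E15.5, then 0.13, 0.16 and 0.42 at P0 and -0.57, 0.29 and 0.33 at P7, and was called lower from E11.5 to P7 (-1.02, SE 0.31, adjusted p = 0.029; not called without E11.5 replicate 1 or P7 replicate 2, adjusted p = 0.107 and 0.0983). Gstm2 had -1.06, -0.92 and -0.87 at E11.5, -1.51, -0.84 and -0.80 at E15.5, -0.82, -0.60 and -0.54 at P0 and -0.81, -0.29 and -0.24 at P7, and missed the threshold over that span (0.50, SE 0.21, adjusted p = 0.0912). Each age overlapped the next for Gstm2. Gstm4 ranged from 0.12 to 0.78 over the 12 wild-type arrays up to P7, with every pair of neighbouring ages overlapping. Gstm6 was near its detection limit at these ages, well above background in Cy5 on 1 of 3 arrays at E11.5, none at E15.5, 1 at P0 and all 3 at P7, and ranged from -0.47 to 0.075. Gstp1 had -1.26, -1.25 and -0.80 at E11.5, -1.64, -1.45 and -1.38 at E15.5, -1.39, -1.21 and -1.03 at P0 and -1.38, -1.24 and -1.03 at P7, and its interval for the change from P0 to P7 was -0.36 to 0.35.

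At P7, all 10 transferases were higher in Keap1-/- than in wild-type esophagi, and the arrays of the 2 genotypes did not overlap for any member. The share of all genes whose arrays did not overlap is not given, so here and below non-overlap only describes the members. The share called higher was 15.4% of 19058 genes tested, and the members' median difference was 2.69 beside -0.025 over all genes tested. Gstm3, Gstm1 and Gstp1 rose most, by 6.14, 5.97 and 3.43 on the log2 scale, and Gstm5 least; with the Cy5 signal alone, described further on, Gsta2, Gsta3, Gstm2, Gstm4 and Gstm6 exceeded Gstp1. Against esophagi that lacked Nrf2 as well as Keap1, 9 of 10 members were called higher in Keap1-/- ones (15.2% of genes tested), the exception being Gstm5. In Nrf2-/- esophagi no member was called against wild type (0.0157% of genes tested were called, and 3 members had an unadjusted p under 0.05), nor in Nrf2-/-Keap1-/- esophagi (0.425%; 3 members). The same controls serve these comparisons, so they are not independent.

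**Figure D2:**
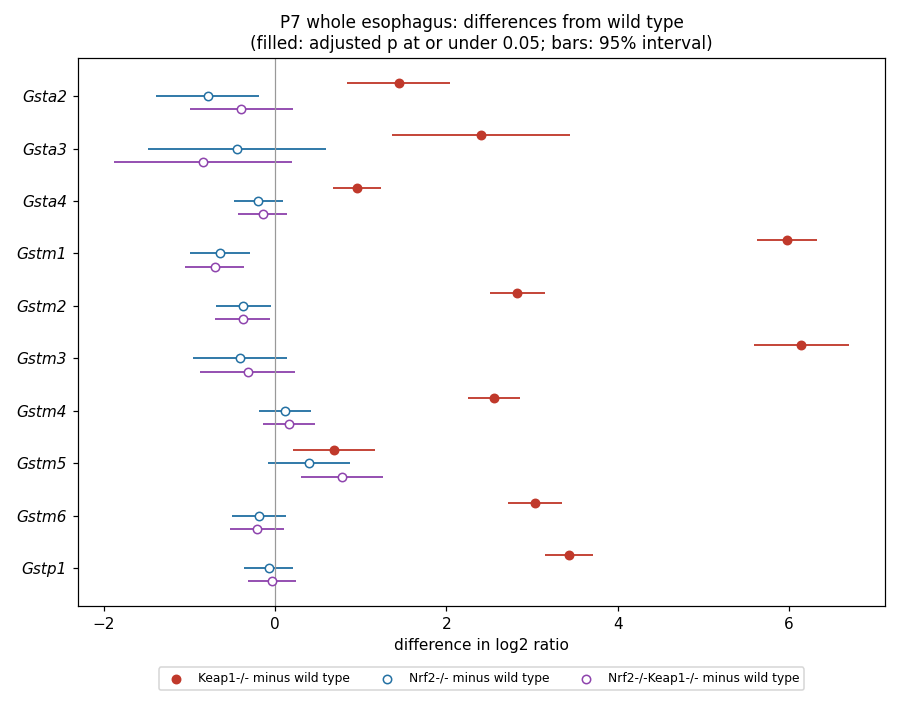
Difference in log2 ratio from wild-type whole esophagus at P7 (horizontal axis, with 95% interval) for each transferase (vertical axis) in Keap1-/-, Nrf2-/- and Nrf2-/-Keap1-/- mice; filled points had an adjusted p of 0.05 or lower. All 10 Keap1-/- points are filled, from 0.68 (Gstm5) to 6.14 (Gstm3), and all points of the other genotypes are open.

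The mu genes differed widely in how far they rose without Keap1. Gstm1 had 4.82, 5.05 and 5.38 on the Keap1-/- arrays against -1.13, -0.79 and -0.75 in wild type, -1.65, -1.58 and -1.36 in Nrf2-/- and -1.75, -1.56 and -1.48 in Nrf2-/-Keap1-/- esophagi. No P7 array of another genotype exceeded -0.75, and the difference from wild type was 5.97 (SE 0.16, adjusted p = 2.41e-09), a 62.8-fold increase. Its 2 probes gave 6.29 and 5.65. Gstm3 had 4.40, 4.71 and 4.72 without Keap1, -1.97, -1.32 and -1.31 in wild type, -2.41, -1.84 and -1.59 without Nrf2 and -2.15, -1.93 and -1.48 without both, a difference from wild type of 6.14 (SE 0.25, adjusted p = 4.93e-08), or 70.7-fold. The 3 genotypes other than Keap1-/- overlapped for Gstm3. Gstm6 had 2.78, 3.09 and 3.28 in Keap1-/- and -0.034, 0.014 and 0.075 in wild-type esophagi (3.03, SE 0.14, adjusted p = 1.58e-07), with -0.38, -0.17 and 0.049 in Nrf2-/- and -0.29, -0.25 and -0.043 in Nrf2-/-Keap1-/- ones, where only 2 and 1 of 3 arrays were well above background.

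Gstm2 had 2.26, 2.39 and 2.49 in Keap1-/-, -0.81, -0.29 and -0.24 in wild-type, -0.91, -0.79 and -0.75 in Nrf2-/- and -0.96, -0.76 and -0.74 in Nrf2-/-Keap1-/- esophagi, and rose by 2.83 (SE 0.15, adjusted p = 3.17e-07). Gstm4 had 2.79, 2.81 and 3.09 in Keap1-/- esophagi and stayed between 0.12 and 0.68 on the other 9 arrays of P7, a rise of 2.56 (SE 0.14, adjusted p = 4.42e-07). Both genes separated Keap1-/- esophagi from all others, while the other 3 genotypes overlapped. Gstm5, whose window holds a core of the response element, had 0.58, 0.73 and 0.78 in Keap1-/- and 0.51, 0.87 and 1.02 in Nrf2-/-Keap1-/- esophagi, which overlapped, and 0.33, 0.45 and 0.46 in Nrf2-/- and -0.57, 0.29 and 0.33 in wild-type ones. Its difference of 0.68 (SE 0.22, adjusted p = 0.0328) from wild type was 0.39 (adjusted p = 0.0604) without wild-type replicate 2, and was not called without Keap1-/- replicate 2 or 3 (adjusted p = 0.0958 and 0.0889) or with the replicate number as a block (0.0522).

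All 3 alpha genes rose. Gsta3 had 3.47, 3.55 and 3.91 in Keap1-/- esophagi, 0.93, 1.00 and 1.78 in wild type, -0.05, 0.30 and 2.14 without Nrf2 and 0.12, 0.37 and 0.71 without both, and was higher by 2.40 (SE 0.47, adjusted p = 0.00305) in Keap1-/- than in wild-type esophagi, or 5.28-fold. Its 2 probes gave 2.80 and 2.00. Gsta2 had 4.69, 4.87 and 4.93 in Keap1-/-, 2.89, 3.46 and 3.80 in wild-type, 2.20, 2.54 and 3.05 in Nrf2-/- and 2.54, 3.15 and 3.28 in Nrf2-/-Keap1-/- esophagi, a difference from wild type of 1.44 (SE 0.27, adjusted p = 0.00251). For Gsta4 the values were 3.64, 3.65 and 3.84, 2.61, 2.78 and 2.87, 2.37, 2.58 and 2.73 and 2.40, 2.71 and 2.73 in the same order of genotypes, and the difference was 0.95 (SE 0.13, adjusted p = 0.000334). In all 3 genes the Keap1-/- arrays lay above every other P7 array.

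Gstp1, whose window holds TGAGTCAGC, had 2.18, 2.18 and 2.29 in Keap1-/- esophagi, and its 9 other P7 arrays lay between -1.44 and -1.01. The difference from wild type was 3.43 (SE 0.13, adjusted p = 2.51e-08), or 10.8-fold, and its 2 probes gave 3.43 and 3.44. The intervals of Gstp1 against wild type were -0.36 to 0.21 in Nrf2-/- and -0.32 to 0.24 in Nrf2-/-Keap1-/- esophagi.

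On the Keap1-/- arrays the reference channel of several member probes differed too, although the same reference RNA was named for all samples. The Cy3 intensity of 1 of the 2 Gstm1 probes was 8541 to 15570 on these arrays and 84200 to 93760 on wild-type P7 arrays. Relative to the median Cy3 intensity of the array, this probe was at 0.226 times its wild-type value, the Gstm3 probe at 0.615 and the Gstp1 probe shared with Gstp2 at 0.482, whereas the Gsta2 probe was at 6.11 times its wild-type value. The contrast was therefore repeated with the Cy5 signal alone, scaled between arrays, which was chosen after the data were seen. From Cy5, Keap1-/- exceeded wild type by 5.01 (SE 0.19, adjusted p = 3.96e-08) for Gstm1, 5.25 (SE 0.23, adjusted p = 1.43e-07) for Gstm3, 2.60 (SE 0.12, adjusted p = 2.49e-07) for Gstp1 and 3.80 (SE 0.38, adjusted p = 7.22e-05) for Gsta2. All 10 members were again called higher. The part of the reference channel in the size of each ratio was not tested.

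**Figure D3:**
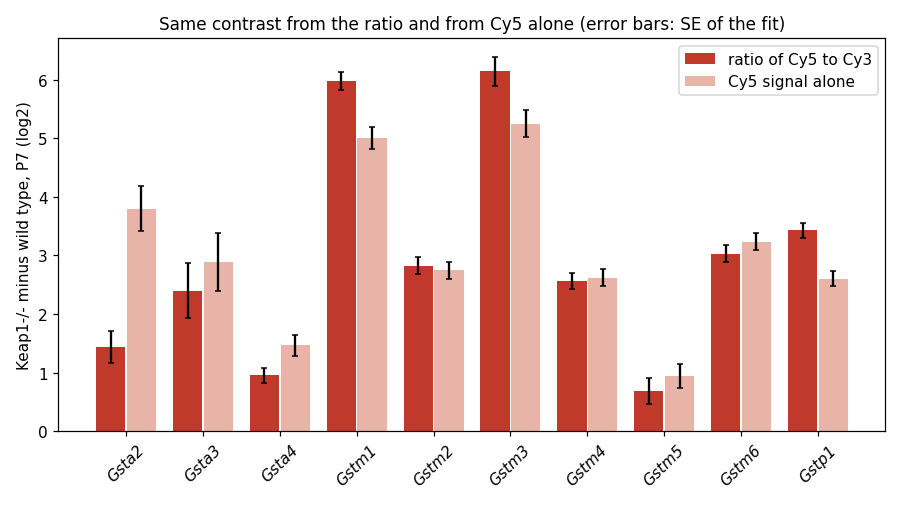
Keap1-/- minus wild-type whole esophagus at P7 on the log2 scale (vertical axis) for each transferase (horizontal axis), from the ratio of Cy5 to Cy3 and from the Cy5 signal alone; error bars are the SE of the fit. All bars lie above 0, and the pair of bars differs most for Gsta2 (1.44 from the ratio and 3.80 from Cy5).

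Markers of other tissues differed between the same arrays. Fibroblast markers had mean log2 ratios of 0.45 to 0.87 in Keap1-/- and 1.76 to 2.01 in wild-type esophagi, with 6 of 7 called lower. Liver markers had -0.12 to 0.35 against 2.80 to 4.28, with 4 of 5 called lower. Striated muscle markers had 4.93 to 5.43 against 4.35 to 5.14 (3 of 8 higher, 1 lower), smooth muscle markers had 1 of 8 called higher and 5 lower, and epithelial markers were at 2.47 to 2.72 against 2.95 to 3.47 (2 of 11 higher, 4 lower). The epithelial genes called lower were Krt8 (-4.11), Krt18 (-2.405), Epcam (-1.79) and Cdh1 (-0.64). Those called higher were Krt14 (0.98) and Dsp (0.53), so the mean of this list mixes opposite changes. The part of tissue makeup in the transferase differences was not tested.

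Whether the rise without Keap1 differed between mice with and without Nrf2 was tested by an interaction. This was the Keap1-/- minus wild-type difference less the Nrf2-/-Keap1-/- minus Nrf2-/- difference. The Keap1-/- arrays enter it, alone at P7 in their slide, scan and software version. Genotype cannot be told apart from these in its values. The interaction was called for 8 of 10 members, all positive, against 7.13% of genes tested. The values were 6.06 (SE 0.35, adjusted p = 2.22e-06) for Gstm3, 6.04 (SE 0.22, adjusted p = 8.74e-08) for Gstm1, 3.40 (SE 0.18, adjusted p = 1.06e-06) for Gstp1 and 2.80 (SE 0.66, adjusted p = 0.0177) for Gsta3. Gsta2 missed the threshold (1.05, SE 0.39, adjusted p = 0.0928), and so did Gstm5 (0.30, SE 0.31, adjusted p = 0.556). With Cy5 alone Gsta2 passed it (3.04, SE 0.54, adjusted p = 0.0061). From Cy5 the interaction was smaller for Gstm3 (5.20), Gstm1 (5.16) and Gstp1 (2.58) and larger for Gsta3 (3.26). In mice without Nrf2, the further loss of Keap1 changed no member by the test (0% of genes tested were called, and no member had an unadjusted p under 0.05), with differences from -0.40 (Gsta3) to 0.39 (Gsta2).

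Loss of Nrf2 alone gave small differences at P7. Gstm1 was -0.64 (SE 0.16, adjusted p = 0.35) against wild type in Nrf2-/- and -0.71 (SE 0.16, adjusted p = 0.0779) in Nrf2-/-Keap1-/- esophagi, and in both genotypes all arrays lay below all wild-type ones. Without wild-type replicate 3, Gstm1 and Gstm2 were called lower in Nrf2-/-Keap1-/- esophagi (-0.83 and -0.56, both with an adjusted p of 0.0454), and with slide as a random block Gstm1 was (-0.70, adjusted p = 0.0353). Gsta2 was -0.79 (SE 0.27, adjusted p = 0.402) and Gstm2 -0.37 (SE 0.15, adjusted p = 0.424) in Nrf2-/- esophagi, and both overlapped wild type. Fat markers had 3 of 4 tested called higher in Nrf2-/-Keap1-/- esophagi. For Gstm5 the sign was positive, 0.40 (SE 0.22, adjusted p = 0.53) without Nrf2 and 0.79 (SE 0.22, adjusted p = 0.116) without both. Each of the wild-type and Nrf2-/- groups lay on a slide that held no array of the other, so slide and genotype cannot be told apart between them. No slide held both wild-type and Nrf2-/-Keap1-/- arrays of P7 either. The random block thus does not separate slide from genotype there.

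From whole esophagus at P7 to adult epithelium, 9 of the 10 members were called higher in wild type, against 19.9% of 18011 genes tested, and the exception was Gsta3. The members' median difference was 1.63, beside 0.0075 over all genes tested. Gstm3, Gstm1, Gstm2 and Gstm6 rose most, by 3.999, 3.79, 3.07 and 3.00, followed by Gstp1 with 2.22. In Nrf2-/- mice 7 members were called higher over the same step (27.9% of 18756 genes tested) and Gsta3 lower (28.7%). No adult Nrf2-/- array shared a scan or a version of the reading software with a P7 one. In this genotype scan and software therefore cannot be told apart from age. In neither genotype did a slide hold arrays of both ages, so slide and age cannot be told apart either. Age and tissue cannot be told apart here: striated muscle markers went from 4.35 to 5.14 in wild-type esophagi at P7 to 0.80 to 1.75 in adult epithelium, with 8 of 8 called lower, and fibroblast markers from 1.76 to 2.01 to -0.55 to 0.073, with 7 of 7 called lower. Epithelial markers were at 2.95 to 3.47 and 2.81 to 3.20, with 4 of 11 called higher and 2 lower. Lower were Krt8 (-4.765) and Epcam (-0.805), and higher were Perp (1.63), Dsp (1.09), Krt13 (0.75) and Trp63 (0.66).

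**Figure D4:**
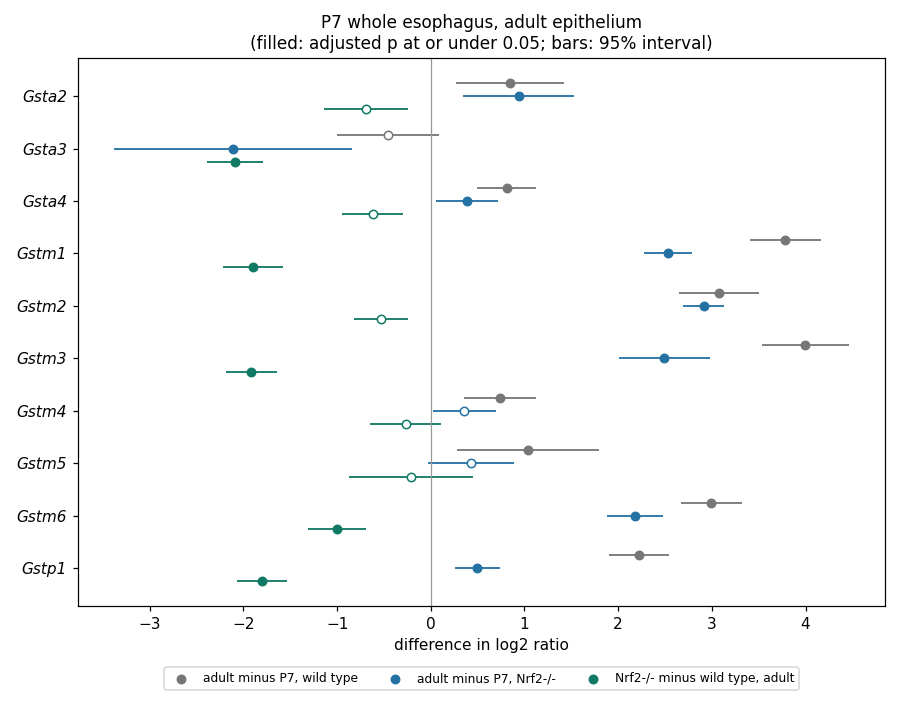
Difference in log2 ratio (horizontal axis, with 95% interval) for each transferase (vertical axis) between adult epithelium and whole esophagus at P7 in wild-type and Nrf2-/- mice, and between Nrf2-/- and wild-type adult epithelium; filled points had an adjusted p of 0.05 or lower. In adults 5 members are filled and lie below 0, from -1.001 (Gstm6) to -2.09 (Gsta3).

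In adult epithelium, 5 of 10 members were called lower without Nrf2, against 0.211% of 18045 genes tested, and none was called higher. Their median difference, over all 10, was -0.85 beside 0.019 over all genes tested. Gsta3 had -1.42, -1.36 and -1.16 in Nrf2-/- and 0.65, 0.77 and 0.92 in wild-type epithelium, a difference of -2.09 (SE 0.13, adjusted p = 0.000905), or 4.26-fold lower. For Gstm3 the values were 0.49, 0.54 and 0.62 against 2.35, 2.45 and 2.59 (-1.92, SE 0.12, adjusted p = 0.000905), and for Gstm1 0.95, 0.96 and 1.09 against 2.70, 2.88 and 3.12 (-1.90, SE 0.14, adjusted p = 0.00169). Gstp1 had -0.89, -0.76 and -0.73 without Nrf2 and 0.89, 1.07 and 1.07 with it, lower by 3.49-fold (-1.80, SE 0.12, adjusted p = 0.00105). None of these 4 genes had overlapping groups. The fifth, Gstm6, had 1.95, 2.04 and 2.05 against 2.78, 3.08 and 3.18 (-1.001, SE 0.14, adjusted p = 0.0315) and was not called without wild-type replicate 2, Nrf2-/- replicate 2 or Nrf2-/- replicate 3 (adjusted p from 0.112 to 0.165), or with the replicate number, slide or scan as a block (0.112, 0.118 and 0.0973).

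Striated muscle markers had means of 1.69 to 2.82 in Nrf2-/- and 0.80 to 1.75 in wild-type adult epithelium, with none of 7 called, and of 4 blood markers 1 was called higher; their part in these differences was not tested. The adult arrays came from several slides and 3 scans. All 3 Nrf2-/- but 1 of 3 wild-type arrays were read with the newer software version. No slide held adult arrays of both genotypes. Slide and genotype therefore cannot be told apart in adults, also where slide was a block. With scan as a block, the contrast came from the scan that held wild-type replicate 3 and Nrf2-/- replicates 1 and 2, so the lone wild-type array was assumed to vary like the other arrays of the fit; the differences were -2.04 for Gsta3 (adjusted p = 0.0119), -2.10 for Gstm1 (0.0123), -1.94 for Gstm3 (0.019) and -1.89 for Gstp1 (0.019). With median centring in place of loess all 5 kept their sign, at -1.46, -1.20, -1.21, -0.55 and -1.06 for Gsta3, Gstm1, Gstm3, Gstm6 and Gstp1, and none was called (adjusted p from 0.0654 to 0.123).

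The remaining members were not called in adults. Gsta2 was called only with the Cy5 signal alone (-1.05, SE 0.16, adjusted p = 0.0344), and it had 3.31, 3.42 and 3.89 without Nrf2 and 3.96, 4.26 and 4.47 with it (-0.69, SE 0.19, adjusted p = 0.167), Gsta4 2.77, 2.94 and 3.14 and 3.48, 3.48 and 3.74 (-0.62, SE 0.14, adjusted p = 0.117), and Gstm2 2.03, 2.11 and 2.17 and 2.48, 2.61 and 2.79 (-0.53, SE 0.12, adjusted p = 0.125). In these 3 genes every Nrf2-/- array lay below every wild-type one. Gstm4 had 0.54, 0.89 and 1.00 without and 0.85, 1.16 and 1.22 with Nrf2, and Gstm5 0.58, 0.66 and 1.28 and 0.48, 1.17 and 1.51; both overlapped, and their intervals were -0.65 to 0.11 and -0.87 to 0.45.

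The step from P7 to adult epithelium in the 2 genotypes can be read from these levels, though in Nrf2-/- mice scan and software version also changed over it. Gstm1 rose by 3.79 (SE 0.16, adjusted p = 9.17e-06) in wild type and 2.53 (SE 0.11, adjusted p = 9.44e-06) in Nrf2-/- mice, and Gstm3 by 3.999 (SE 0.20, adjusted p = 1.6e-05) and 2.49 (SE 0.20, adjusted p = 9.2e-05). Gstp1 rose by 2.22 (SE 0.14, adjusted p = 3.71e-05) and 0.50 (SE 0.10, adjusted p = 0.00523), and Gstm2 by 3.07 (SE 0.18, adjusted p = 3.22e-05) and 2.92 (SE 0.092, adjusted p = 3.58e-06). The difference between these steps equals that between the effects of Nrf2 at the 2 ages, and it was called for Gstp1 alone among the members (-1.73, SE 0.16, adjusted p = 0.0034), against 0.0258% of 19385 genes tested called in that direction. Gstm1 and Gstm3 had -1.25 (SE 0.20, adjusted p = 0.0624) and -1.51 (SE 0.30, adjusted p = 0.143), and for Gstm2 the interval was -0.62 to 0.30. Gsta2 and Gsta4 rose by 0.85 (SE 0.25, adjusted p = 0.0268) and 0.81 (SE 0.13, adjusted p = 0.00262) in wild type, and Gstm4 and Gstm5 by 0.74 (SE 0.16, adjusted p = 0.00974) and 1.04 (SE 0.33, adjusted p = 0.036). Gsta2 lost its call without wild-type adult replicate 1 or 2 or P7 replicate 3 (adjusted p from 0.0594 to 0.0917), and with scale normalization between arrays Gsta2 was at 0.35 (adjusted p = 0.436) and Gsta4 at 0.41 (0.153), neither called. With all 27 arrays in 1 fit neither was called (adjusted p = 0.2 and 0.0704), and with the Cy5 signal alone Gsta2 rose by 1.92 (adjusted p = 0.0024). Gstm5 lost its call without adult replicate 1 or 2 or P7 replicate 2 (adjusted p from 0.0722 to 0.117). In Nrf2-/- mice Gsta2 and Gsta4 rose by 0.94 (SE 0.25, adjusted p = 0.0162) and 0.39 (SE 0.14, adjusted p = 0.0499); the call of Gsta4 was lost in 13 of 19 alternatives and its sign turned in 1 more, and the call of Gsta2 was lost in 5. With scale normalization between arrays Gsta4 turned to -0.34 (adjusted p = 0.0674) and Gsta2 was at 0.076. With Feature Extraction's processed signals they were at 0.093 (adjusted p = 0.659) and 0.68 (0.0699), and Gsta4 had an adjusted p of 0.0922 with the replicate number as a block and 0.101 to 0.134 without Nrf2-/- adult replicate 2 or 3 or P7 replicate 1 or 3. Without P7 replicate 1 the adjusted p of Gsta2 was 0.0504.

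Among the Gsta3 values 1 array stood apart. Nrf2-/- replicate 3 at P7 had a Gsta3 log2 ratio of 2.14 where the other Nrf2-/- arrays had -0.05 and 0.30. The mean of 5 liver marker genes was 5.78 on that array, against 2.18 and 3.48 on the other Nrf2-/- arrays, and Ttr, a plasma carrier protein of liver, was at 5.79 there, against 0.24 and 1.23. Liver markers were also above background on the wild-type and Nrf2-/-Keap1-/- arrays of P7 (4 or 5 of 5 genes), but on only 1 to 3 of 5 genes on adult arrays and 2 or 3 on Keap1-/- arrays. Without that array, Gsta3 fell from P7 to adult Nrf2-/- epithelium by 1.44 on the log2 scale (adjusted p = 0.000521), compared with -2.11 for all arrays, and the interaction of Keap1 and Nrf2 at P7 was 2.13 (adjusted p = 0.00524). Among wild-type P7 arrays, replicate 2 had the highest Gsta3 (1.78, against 0.93 and 1.00) and the highest liver mean (4.28, against 2.98 and 2.80). Among Nrf2-/-Keap1-/- arrays, replicate 3 had the highest Gsta3 (0.71) but the lowest liver mean (1.84). The part of liver RNA in the Gsta3 values was not tested.

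**Figure D5:**
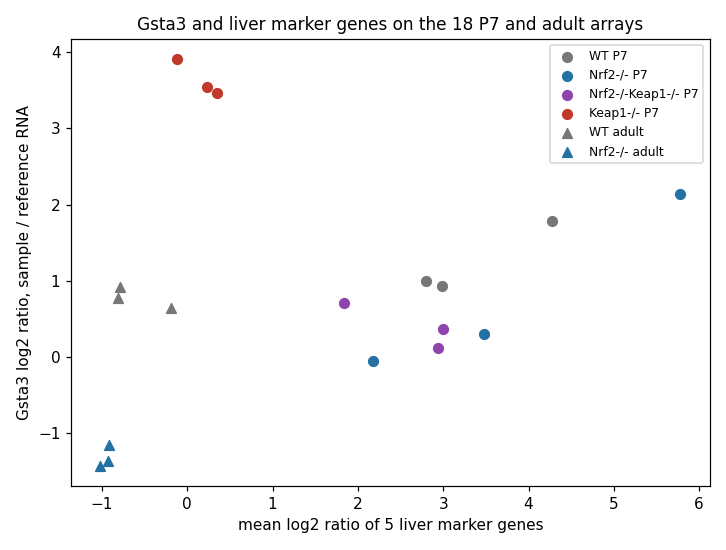
Gsta3 log2 ratio of sample to reference RNA (vertical axis) against the mean log2 ratio of 5 liver marker genes (horizontal axis) on the 18 P7 and adult arrays, coloured by genotype, with triangles for adult epithelium. Nrf2-/- replicate 3 of P7 lies farthest right at 5.78, and the Keap1-/- arrays are highest in Gsta3 (3.47 to 3.91) with liver markers between -0.12 and 0.35.

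Over the 9 groups, the order of the mean levels was similar for Gstm1 and Gstm3. Both were highest in Keap1-/- esophagi (5.08 ± 0.28 and 4.61 ± 0.18; mean ± SD, n = 3), then in wild-type adult (2.90 ± 0.21 and 2.46 ± 0.12) and Nrf2-/- adult epithelium (1.00 ± 0.076 and 0.55 ± 0.064), and none of these 3 groups overlapped the next. For Gstp1 the first 3 places were the same (2.22 ± 0.064, 1.01 ± 0.10 and -0.79 ± 0.088), and Nrf2-/- adult epithelium overlapped E11.5. Wild-type adult epithelium and Keap1-/- esophagi overlapped in first place for Gstm2 (2.63 ± 0.16 and 2.38 ± 0.12), Gstm6 (3.01 ± 0.21 and 3.05 ± 0.25) and Gsta4 (3.57 ± 0.15 and 3.71 ± 0.12), while for Gsta2 they did not (4.23 ± 0.25 and 4.83 ± 0.13). Keap1-/- esophagi stood alone at the top for Gsta3 (3.64 ± 0.24), and its other groups each overlapped the next. For Gstm4 only Keap1-/- esophagi stood apart (2.90 ± 0.16), and for Gstm5 the 6 highest groups overlapped their neighbours in the order. An embryonic group was last for every member except Gstm4 and Gstm5, whose lowest mean was in wild type at P7.

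Other genes of the pathway were read as lists. Of 14 tested transferases outside the 10, 4 were called higher (Mgst1, Gsta1, Mgst2 and Mgst3) and 3 lower (Gstt3, Gstk1 and Hpgds) in Keap1-/- esophagi, with a list median of 0.089. Gsta1, whose transcript the Gsta2 probe also lists, had 2.28 (SE 0.34, adjusted p = 0.000656). Mgst1, a membrane-bound transferase, rose by 2.84 (SE 0.43, adjusted p = 0.000643) there and was the only gene of that list called in adult Nrf2-/- epithelium (-2.42, SE 0.19, adjusted p = 0.00206). All 8 genes that supply glutathione and its reducing power were called higher without Keap1, with a list median of 2.87. They include Gclc, the catalytic subunit of the first enzyme of glutathione synthesis (6.04, SE 0.41, adjusted p = 2.42e-06), and Slc7a11, the cystine carrier (5.71, SE 0.095, adjusted p = 1.05e-10). None of the 8 was called in Nrf2-/- or Nrf2-/-Keap1-/- esophagi, and Gclc and G6pdx were called lower in adult Nrf2-/- epithelium (-2.27, SE 0.25, adjusted p = 0.0145, and -1.05, SE 0.16, adjusted p = 0.0458).

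Of 16 tested genes for export and further handling of conjugates, 10 were called higher and 1 lower in Keap1-/- esophagi (median 0.43), led by the exporters Abcc4 (3.06, SE 0.075, adjusted p = 1.44e-09) and Abcc1 (2.38, SE 0.13, adjusted p = 4.99e-07). In adult Nrf2-/- epithelium Abcc3 was the only gene of the list called (-0.81, SE 0.12, adjusted p = 0.0383). Of 12 other targets of Nrf2, 11 were called higher in Keap1-/- esophagi (median 3.09), with the reductase Akr1b8 at 5.54 (SE 0.21, adjusted p = 2.51e-08) and the quinone reductase Nqo1 at 4.89 (SE 0.47, adjusted p = 3.7e-05), and 5 were called lower in adult Nrf2-/- epithelium (median -0.66), with Nqo1 at -3.41 (SE 0.19, adjusted p = 0.000535) and Akr1b8 at -2.75 (SE 0.13, adjusted p = 0.000455). From P7 to adult wild-type epithelium, 11 of these 12, 6 of the 8 supply genes, 7 of 16 export genes and 4 of 13 other transferases were called higher, against 19.9% of genes tested. Called lower were Gsr (-1.06, adjusted p = 0.00325) of the supply genes, Abcc5, Anpep and Dpep1 (-0.80, -1.53 and -0.62) of the export genes, Gsto1 (-2.36, adjusted p = 0.000146) of the other transferases and none of the other targets. These lists were chosen with earlier results known, so their counts are descriptions.

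The genes whose group means followed each class most closely were found over the 9 groups among 20731 genes. For the mean of the alpha genes they were Stat3 (Pearson's r = 0.975), Gsta1 (0.968) and Syngr1 (0.968), for the mean of the mu genes Gng4 (0.991), Mt2 (0.99) and Psmd7 (0.989), and for Gstp1 an Ensembl transcript without a symbol (0.982), Washc1 (0.981) and Chrne (0.98). The 9 groups share the reference RNA and, in part, slides, and no test was made of these correlations.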

How the data were processed

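Total RNA of 27 esophagus samples, 3 in each of 9 groups, was labelled with Cy5 and hybridised with a Cy3-labelled mouse reference to 2-colour Agilent arrays. The deposited scanner files hold the mean and background intensity of each spot in both channels, and the authors' series table holds log10 ratios of the same arrays, used here as an alternative only. The labels name Feature Extraction 9.1, while the file headers name 10.5.1.1 and, for 7 arrays (all Keap1-/-, all adult Nrf2-/- and wild-type adult replicate 3), 10.7.3.1.
Intensities were corrected with normexp (offset 50) and normalized by loess in limma 3.58.1 (R 4.3.3). A spot was left out where its local background exceeded 5 times the median of its array, and outlier-marked spots were kept. Spots were averaged to probes and probes to genes. A probe was tested where its Cy5 signal cleared background on 3 or more arrays. Differences were fitted with lmFit and eBayes and adjusted by Benjamini-Hochberg over all genes tested. On simulated data, changes of 1 log2 unit were recovered in 72% for Keap1-/- against wild type and 66% for adult Nrf2-/-. Changes of 2 log2 units were recovered in 96% for both, so smaller true differences can be missed. The labels do not say that replicate numbers pair the samples. All 3 same-numbered pairs had a correlation of their deviations over 0.1 for E11.5 with P7 (0.122, 0.186 and 0.125), P0 with P7 (0.117, 0.358 and 0.248) and Keap1-/- with Nrf2-/-Keap1-/- (0.351, 0.215 and 0.118). Such values do not show that the numbers pair samples, and each RNA came from a single esophagus. The main fits used group means only, and the replicate number entered as a block only among the alternatives.
Members, marker lists and pathway lists were chosen with earlier results of these data known. All members are named; of each pathway list, the 2 to 4 genes with the largest called change are, and other genes of the lists were named after their values were seen. Alternatives covered signals, normalization, filters, blocks and left-out arrays; the Cy5 signal alone was added after the data were examined. Arrays have no read depth, and their number limits the precision.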

Additional observations from a re-analysis of the deposited data

Results flagged for a closer look

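The effect of losing Keap1 at P7 differed between mice with and without Nrf2 for 8 transferases, by the interaction in the limma fit across all genes (12 arrays). The interaction was 6.06 for Gstm3, 6.04 for Gstm1, 3.40 for Gstp1, 3.06 for Gstm6, 2.83 for Gstm2, 2.80 for Gsta3, 2.50 for Gstm4 and 0.90 for Gsta4, on the log2 scale. With the Cy5 signal alone it was 5.20, 5.16, 2.58, 3.35, 2.79, 3.26, 2.69 and 1.27 in the same order. The Keap1-/- arrays were alone in their scan, so genotype and scan cannot be told apart in these values.

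The effect of losing Nrf2 differed between P7 and adulthood for Gstp1, with an interaction of -1.73 on the log2 scale (adjusted p = 0.0034 in the same kind of fit). Tissue differed with age, so the 2 cannot be told apart. In Nrf2-/- mice scan and software version also differed with age. Groups of 3 arrays are too small for single arrays to be tested as outlying.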

How the results depend on the processing

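Leaving out outlier-marked spots gave 2 called members in place of 4 from E15.5 to P0, 1 in place of 5 from E11.5 to P7, 3 in place of 9 from P7 to adult in wild type, 3 in place of 8 in Nrf2-/- mice, 4 in place of 10 for Keap1-/- against wild type, 4 in place of 9 for Keap1-/- against Nrf2-/-Keap1-/-, 4 in place of 8 for the interaction of Keap1 and Nrf2, and 2 in place of 5 for adult Nrf2-/-; fewer members could be tested there. From E11.5 to P7, Feature Extraction's processed signals, median centring, no filter on dim probes and the value table each gave 3. Median centring gave 0 called members in adult Nrf2-/- epithelium and 0 for the interaction of Nrf2 and age, where scale normalization and the Cy5 signal alone each gave 2 in place of 1. Slide as a block gave 1 in place of 0 for Nrf2-/-Keap1-/- against wild type (Gstm1), although no slide held arrays of both genotypes. Without E11.5 replicate 3 and E15.5 replicate 1 together, which were picked from these same data, the step from E11.5 to E15.5 had 3 called members in place of 0. The causes of these changes were not tested, apart from the fewer members tested. A single sign turned among called members: Gsta4 from P7 to adult in Nrf2-/- mice, -0.34 with scale normalization.

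Leaving out 1 array at a time gave 3 to 4 called members from E15.5 to P0, 2 to 5 from E11.5 to P7, 7 to 9 and 6 to 9 from P7 to adult in wild-type and Nrf2-/- mice, 9 to 10 for Keap1-/- and 0 to 2 for Nrf2-/-Keap1-/- against wild type, 4 to 5 in adults, and 1 to 2 for the interaction of Nrf2 and age. Over all groups compared, 18 of 51 same-numbered pairs of samples had a correlation of their deviations over 0.1 (range -0.448 to 0.64). With the replicate number as a block, 9 members were called for Keap1-/- against wild type (without Gstm5, adjusted p = 0.0522), 4 in adults (without Gstm6, adjusted p = 0.112), 4 from E11.5 to P7 (without Gstm1, adjusted p = 0.0516) and 7 from P7 to adult in Nrf2-/- mice (without Gsta4, adjusted p = 0.0922).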

Other observations

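Across the 9 group means, Gstm1 and Gstm3 had a Pearson's r of 0.999, Gstm2 and Gstm6 of 0.989 and Gstm3 and Gstp1 of 0.969, while Gsta3 and Gstm5 had -0.406. The groups share the reference RNA, and no test was made of these values. The range of group means was 7.12 log2 units for Gstm1, 7.00 for Gstm3, 6.22 for Gsta2 and 4.97 for Gsta3, and it was smallest for Gstm5 at 1.04.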
